A study of Oryza sativa with 4 samples.

Results

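Ribosomal protein genes and translation initiation factor genes were followed in coleoptiles, the sheaths around the first shoot of a grass seedling, of rice (Oryza sativa cv Nipponbare) that had germinated without oxygen or in air. The members were the 33 genes whose symbol or synonym in the RefSeq gene table starts like RPL27, RPS15 or 60SP0, or with eIF or EIF and a digit, of 39387 genes in that table. They comprise 16 genes named for the large ribosomal subunit, 11 for the small subunit and 6 initiation factors. Of these, 28 had a probe set of their own on the Affymetrix Rice Genome array (13 large, 10 small and 5 initiation factor genes), and all 28 passed the filter on low values. The other 5 had no probe set paired with them alone in the annotation used and were not analysed here. All seedlings were 4 days old, grown in darkness at 28 °C: 2 arrays hold anoxic coleoptiles, from a chamber filled with N2 and H2 in parts of 90 to 10, and 2 hold aerobic coleoptiles, grown in air as the control. Aerobic coleoptiles had their primary leaf cut away, and anoxic ones, per the labels, form no such leaf. Nothing in the labels ties replicates to separate cultures, and the p-values then reflect only differences between arrays, technical ones included.

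A ribosome consists of a small subunit that reads the mRNA and a large subunit that joins amino acids, each built from ribosomal RNA and a fixed set of proteins. Initiation factors bring the small subunit to the mRNA: eIF4E binds the cap, eIF4G is the scaffold, eIF4A unwinds the leader and eIF3 binds the small subunit. Making ribosomes is among the most costly activities of a growing cell, and in plants short of oxygen the loading of ribosomes on many mRNAs is known to fall. An array reads mRNA levels and not translation. Values below are normalized intensities, which can be compared between arrays for one probe set but not between genes.

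Median intensities of the arrays were alike, between 7.36 and 7.55. Most probe sets were dim, as 18826 of 57381 entered the test. The median therefore does not show how evenly the bright probe sets were scaled. The anoxia marker PDC1, a pyruvate decarboxylase gene, read 4042 and 4788 in anoxic against 8.45 and 6.41 in aerobic coleoptiles, in keeping with the labels. Of 4 leaf genes on the marker list 3 had a probe set: CAB2R and RBCS1 read below 10 on all arrays, and RBCS, a Rubisco subunit, read 176 and 153 in anoxic and 171 and 147 in aerobic coleoptiles. Summed over the 3, the range was 169 to 191 in anoxic and 164 to 186 in aerobic coleoptiles. Of 9 seed storage genes 7 had a probe set, and 5 of these did not pass the filter on low values. Their sum was 188 to 194 in anoxic against 418 to 451 in aerobic coleoptiles, most of it from the globulin gene GLB (110 and 108 against 372 and 331), and its part in the results below was not tested.

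Few of the ribosomal protein and initiation factor genes passed the test between anoxic and aerobic coleoptiles. A gene was called at a limma adjusted p under 0.05 with a change of at least 2-fold. By this rule 2 of 28 members were called, RPL7A-1 and RPL27, both higher in anoxic coleoptiles, and none was lower, while 34% of all 12290 genes tested were called (16% higher and 18% lower). Of the pair, RPL27 passed the filter through its anoxic arrays, and its aerobic mean lay below that of the brightest probe set for a transgene sequence, so its change can be given only as at least 1.90-fold, which does not reach the 2-fold threshold. RPL7A-1 is thus the 1 called member whose fold was measured above that level in both groups. With no demand on fold, 6 members passed, all higher (RPL30, RPS15, RPS21 and eIF4A-2 in addition), against a background of 42.7% (20.8% higher and 21.9% lower). At an unadjusted p under 0.05, 9 members were higher and 0 lower, against 26.7% higher and 26.7% lower over all genes. The anoxic and aerobic arrays did not overlap for 19 of 28 members, against 77.9% of all genes. For 13 of 28 members the 95% interval of the change lay within 2-fold in either direction, against 30.5% of all genes, and for the remaining members these arrays do not leave out a 2-fold change. The members' log2 changes ran from -0.53 to 1.51 with a median of 0.21, while the middle of all genes, from the 25th to the 75th percentile, spanned -0.73 to 0.70 around a median of 0.032. In whole coleoptiles, a change in the share of cells of a type and a change in RNA per cell cannot be told apart.

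**Figure D1:**
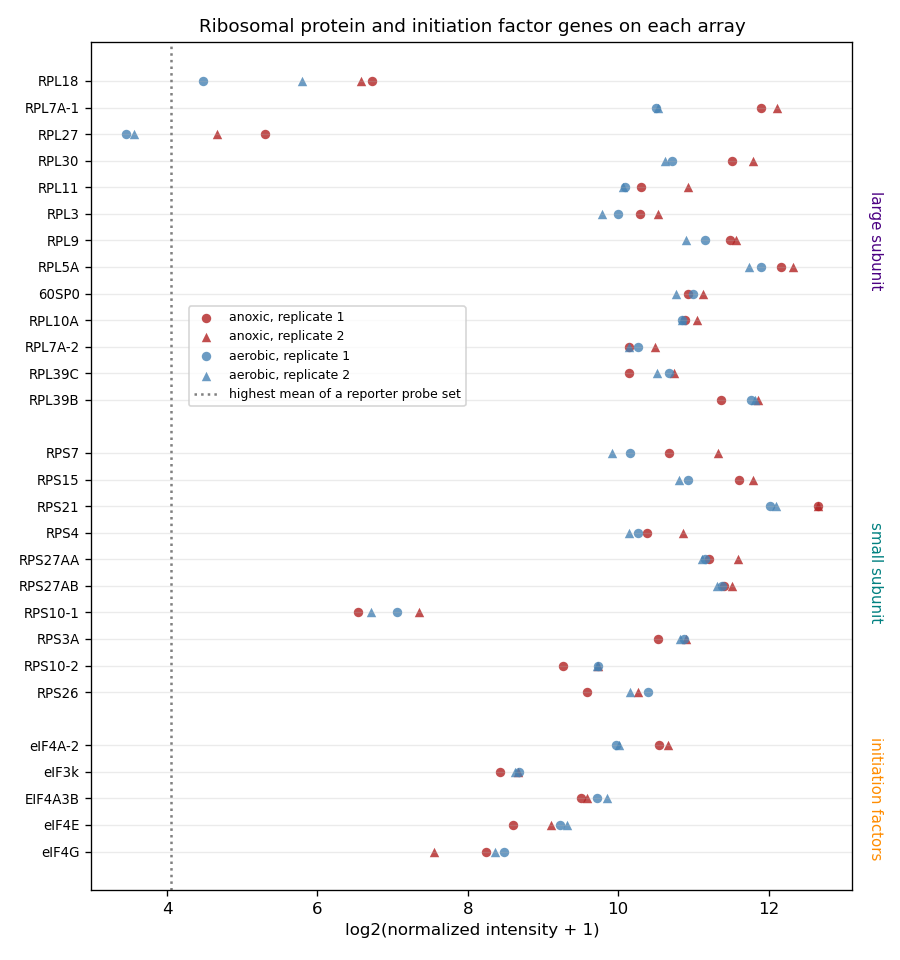
Intensity of each tested member on each array, as log2(intensity + 1), grouped by class and ordered by change; red is anoxic, blue aerobic, and positions can be compared within a row only. For RPL7A-1 the anoxic arrays stand clear of the aerobic ones, for 60SP0 and RPS3A they mix, and RPL27 lies near the dotted line, the highest mean of a reporter probe set (4.05).

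RPL7A-1 (LOC4345279), which encodes a protein of the large subunit, was the clearest difference among the members. It read 3820 and 4440 in anoxic coleoptiles, against 1452 and 1474 in aerobic coleoptiles. The lower anoxic array thus stood well above the higher aerobic one, and the gap was many times the difference between replicates. The mean log2 level was 12.01 ± 0.15 in anoxic and 10.52 ± 0.015 in aerobic coleoptiles (SD, n = 2 each), a change of 1.49 ± 0.18 (SE) or 2.81-fold (limma, adjusted p = 0.00629). The call was lost without aerobic replicate 1 (adjusted p = 0.0635) or aerobic replicate 2 (0.0611), with changes of 1.48 and 1.50 in those fits.

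Its paralog RPL7A-2 (LOC4347522), a second gene for the same ribosomal protein, did not show this difference. It read 1134 and 1434 in anoxic and 1228 and 1126 in aerobic coleoptiles, so the groups overlapped. Its log2 change was 0.12 ± 0.20, with a 95% interval from -0.43 to 0.66 that lies below the estimate for RPL7A-1. Within each array the log2 ratio of RPL7A-1 to RPL7A-2 was 1.75 and 1.63 in anoxic against 0.24 and 0.39 in aerobic coleoptiles, a change of 1.38. This was larger than the spread of either group, but an exact permutation test of 2 arrays against 2 gave p = 0.333 (2-sided), the smallest it can give. The ratio compares probe sets within an array and shows unequal change only.

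RPL27 (LOC4327257) and RPL18 (LOC4334651) are also listed as CL27 and CL18, names used for large-subunit proteins of the chloroplast ribosome, which resembles a bacterial one. RPL27 read 38.5 and 24.3 in anoxic against 9.96 and 10.9 in aerobic coleoptiles. Its aerobic mean lay below the brightest reporter probe set, a probe set for a transgene sequence, so the change can be given only as at least 1.90-fold higher (adjusted p = 0.0181). The anoxic arrays also lay near this level. The call was lost without aerobic replicate 1 (adjusted p = 0.127) or aerobic replicate 2 (0.116), with a pseudocount of 16, with no filter on low values and with low values set to a floor. The remaining pair of RPL27 probe sets read 7.56 to 12.6 on all arrays and did not pass the filter.

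RPL18 read 104 and 94.3 in anoxic against 21.3 and 54.6 in aerobic coleoptiles. The groups did not overlap, but the aerobic arrays differed from each other by more than 2-fold. Its log2 change of 1.51 ± 0.48 did not pass (adjusted p = 0.0688; 0.0441 without aerobic replicate 2 and 0.103 without aerobic replicate 1). The change was 0.85 without aerobic replicate 1 and 2.17 without aerobic replicate 2. Under quantile normalization RPL18 was called, at 1.50 log2 units (limma, adjusted p = 0.0290). The leaf genes of the marker list are also tied to plastids, but CAB2R and RBCS1 were too dim on all arrays to show a gap. The RBCS probe set given above overlapped between the groups. So did a dimmer tested one, at 35.1 and 38.0 in anoxic and 39.2 and 35.4 in aerobic coleoptiles. Another RBCS probe set, too dim to pass the filter, read 12.3 and 10.6 in anoxic against 22.9 and 15.35 in aerobic coleoptiles. The last, dimmer still, overlapped. The part of leaf genes or plastids in the difference was not tested.

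Among the other large-subunit genes, RPL30 (LOC4324441) came closest to the fold threshold. It read 2933 and 3561 in anoxic against 1688 and 1576 in aerobic coleoptiles, a log2 change of 0.99 ± 0.19 (adjusted p = 0.0197). It lay just below the 2-fold threshold at 1.98-fold, and its change ran from 0.85 to 1.13 with 1 array left out. Under quantile normalization RPL30 was called, at 1.01 log2 units (limma, adjusted p = 0.0169). With no filter on low values it did not pass the p threshold (limma, adjusted p = 0.0995). RPL5A (LOC4325100), whose protein carries the 5S ribosomal RNA into the subunit, read 4590 and 5108 in anoxic against 3827 and 3422 in aerobic coleoptiles. It too had no overlap, but its change of 0.42 ± 0.18 did not pass (adjusted p = 0.131). RPL5A lies next to RPL5B in the RefSeq table, and which of the neighbours the probe set reads was not tested.

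RPL11, the partner of RPL5 in the 5S particle, read 1261 and 1950 in anoxic against 1091 and 1069 in aerobic coleoptiles (log2 change 0.54, adjusted p = 0.182). RPL3, which lies near the site where amino acids are joined, read 1249 and 1475 in anoxic against 1021 and 881 in aerobic coleoptiles (0.52, adjusted p = 0.102). RPL9 read 2872 and 3036 in anoxic against 2271 and 1907 in aerobic coleoptiles (0.50, adjusted p = 0.0950). In these 3 genes the anoxic arrays lay above the aerobic ones, as they did for 40.8% of all genes, by amounts that did not pass the test.

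The remaining large-subunit genes gave small differences. 60SP0 (LOC4344590), the stalk protein P0 that lies where elongation factors bind, read 1946 and 2229 in anoxic and 2031 and 1751 in aerobic coleoptiles, and the groups overlapped. Its log2 change was 0.14 ± 0.19 with a 95% interval from -0.36 to 0.65, which leaves out a 2-fold change. RPL10A, of the stalk on the other side of the subunit, read 1894 and 2120 in anoxic and 1846 and 1846 in aerobic coleoptiles (log2 change 0.12, 95% interval -0.34 to 0.58). A second, dimmer probe set of RPL10A changed by -0.60 (adjusted p = 0.113), so the direction for this gene depends on the probe set. RPL39B and RPL39C are copies of the gene for a very small protein in the tunnel through which the new chain leaves. Their log2 changes were -0.18 and -0.15 (adjusted p = 0.566 and 0.675), with overlapping groups. Another RPL39B probe set read 1853 and 2670 in anoxic against 2877 and 2735 in aerobic coleoptiles. It did not overlap, but its change of -0.33 did not pass (limma, adjusted p = 0.328).

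RPS7, RPS15 and RPS21 had the largest changes of the small-subunit genes, which code for proteins of the part that binds mRNA. None of the 10 was called by limma, against 34% of all genes tested. At an unadjusted p under 0.05 these 3 were higher and 0 lower, near the 26.7% higher over all genes, where 26.7% were lower. RPS15 (LOC4342580), of the head of the subunit, read 3118 and 3552 in anoxic against 1946 and 1791 in aerobic coleoptiles. RPS21 (LOC4332813) read 6450 and 6451 in anoxic against 4142 and 4370 in aerobic coleoptiles. Both were higher on every anoxic array, by 0.83 ± 0.18 and 0.60 ± 0.16 log2 units (adjusted p = 0.0255 and 0.0467), under 2-fold. With no filter on low values RPS15 did not pass (limma, adjusted p = 0.0858), while RPS21 did (0.0388). Another probe set of RPS21 read 1509 and 1768 in anoxic against 854 and 795 in aerobic coleoptiles, a change of 0.99 ± 0.18 (adjusted p = 0.0177).

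RPS7 (LOC4338485) read 1628 and 2566 in anoxic against 1139 and 963 in aerobic coleoptiles. The groups did not overlap, but the anoxic arrays differed from each other more than the aerobic ones, and the change of 0.96 ± 0.29 did not pass (adjusted p = 0.0588). Under quantile normalization RPS7 was called, at 1.01 log2 units (adjusted p = 0.0419). With 1 array left out its change ran from 0.64 to 1.29. RPS4 read 1330 and 1864 in anoxic against 1229 and 1134 in aerobic coleoptiles (0.42, adjusted p = 0.226), and its other probe set changed by 0.63 (adjusted p = 0.101).

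Paralogs of the small subunit had small estimates that did not pass. RPS27AA and RPS27AB, whose product is made as a fusion to ubiquitin, had log2 changes of 0.27 and 0.11 (adjusted p = 0.351 and 0.618). RPS10-1 and RPS10-2, for a protein beside the mRNA entry, had changes of 0.060 and -0.23 (adjusted p = 0.906 and 0.467), with overlapping groups in both. Here the intervals ran from -0.85 to 0.97 and from -0.84 to 0.38. The within-array log2 ratio of the pair changed by 0.16 for RPS27AA over RPS27AB and by 0.29 for RPS10-1 over RPS10-2 (exact permutation, p = 0.333 and 0.667, 2-sided, where 0.333 is the smallest possible).

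RPS3A (LOC4331966), also listed as CYC07, was read by 4 tested probe sets. The brightest read 1471 and 1916 in anoxic and 1871 and 1807 in aerobic coleoptiles, a change of -0.13 with a 95% interval from -0.69 to 0.43. The others changed by 0.031, 0.013 and -0.17, so none of the 4 estimates was far from 0. The probe set with -0.17 read 17.3 to 21.7, near the brightest reporter probe set, where changes are understated. RPS26, of the mRNA exit, had the lowest log2 change of the ribosomal protein genes, -0.35 ± 0.29 (adjusted p = 0.393). It read 770 and 1230 in anoxic and 1349 and 1139 in aerobic coleoptiles, with overlap.

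**Figure D2:**
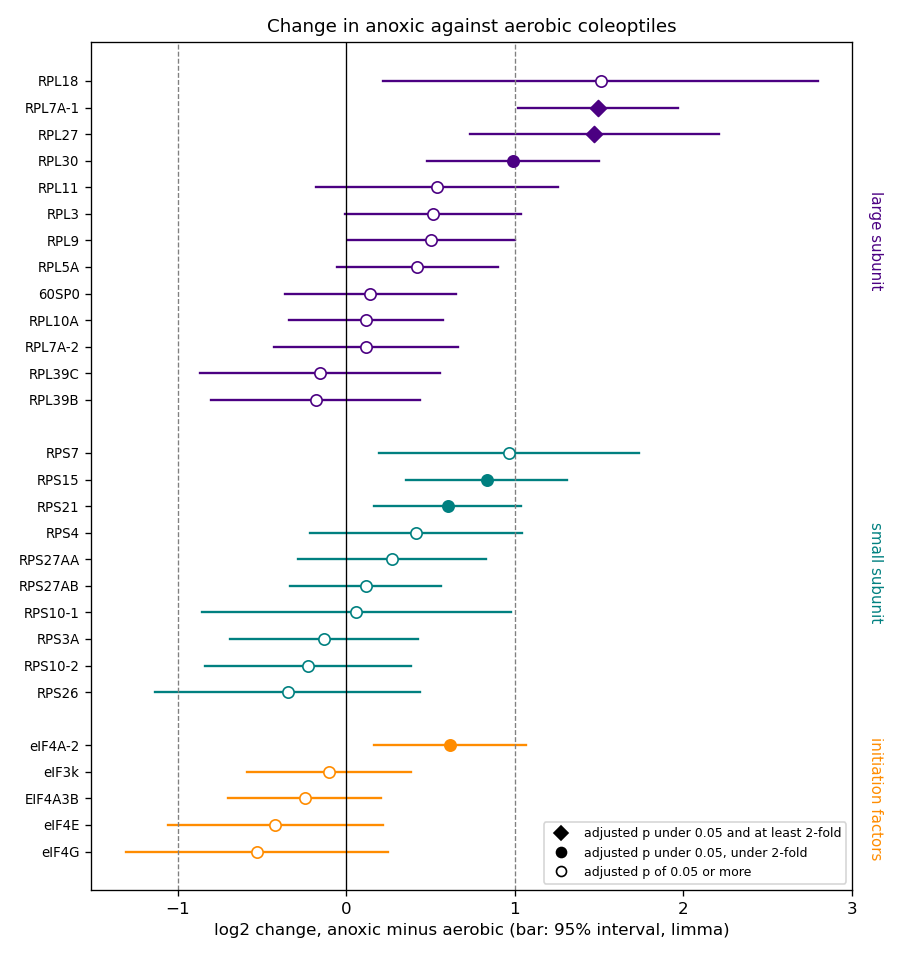
Log2 change of each tested member, anoxic minus aerobic, with its 95% limma interval; dashed lines mark 2-fold, diamonds are called genes and filled circles passed the adjusted p alone. RPL7A-1 and RPL27 are the diamonds, and eIF4E and eIF4G are the lowest of the initiation factors, with intervals that include 0.

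No initiation factor was called by limma in either direction, against 34% of all genes tested. At an unadjusted p under 0.05, 1 was higher and 0 lower, against 26.7% higher and 26.7% lower over all genes. These counts over 5 genes were not tested against those shares, and the estimates had both signs. eIF4A-2 (LOC4328286), an RNA helicase that opens the mRNA leader, read 1495 and 1623 in anoxic against 1000 and 1033 in aerobic coleoptiles. The groups were well apart, and the change of 0.62 ± 0.17 narrowly passed the p threshold (adjusted p = 0.0464) at 1.53-fold. With no filter on low values eIF4A-2 did not pass (limma, adjusted p = 0.0640). It is 1 of 5 tested genes of its class.

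Neither tested gene of the cap-binding complex passed the test. eIF4E (LOC4323837), which binds the cap, read 388 and 551 in anoxic against 598 and 641 in aerobic coleoptiles, a change of -0.42 ± 0.24 (adjusted p = 0.227). The scaffold gene eIF4G (LOC4343565) read 302 and 186 in anoxic against 358 and 328 in aerobic coleoptiles, a change of -0.53 ± 0.29 (adjusted p = 0.214). In both genes the anoxic arrays lay below the aerobic ones, as they did for 37.2% of all genes. Neither change passed, and the intervals ran from -1.06 to 0.22 and from -1.31 to 0.25. The other 3 probe sets of eIF4G changed by -0.024, -0.40 and -0.43 (adjusted p = 0.973, 0.572 and 0.524), with overlapping groups in each. Their replicates were far apart: the probe set with -0.024 read 242 and 181 in anoxic and 139 and 326 in aerobic coleoptiles.

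EIF4A3B (LOC4333273) bears an initiation factor name, but its protein eIF4A-III is known as the core of the complex left on mRNA at exon junctions after splicing. It read 723 and 764 in anoxic against 844 and 921 in aerobic coleoptiles, a change of -0.25 ± 0.17 (adjusted p = 0.305). eIF3k, a subunit of eIF3, read 345 and 407 in anoxic and 411 and 393 in aerobic coleoptiles, with a change of -0.10 and a 95% interval from -0.59 to 0.39.

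By class, the median log2 change was 0.50 over 13 large-subunit genes, 0.19 over 10 small-subunit genes and -0.25 over 5 initiation factors. In the large class 11 estimates were above 0 and 2 below, in the small class 7 and 3, and among initiation factors 1 and 4. Over all 12290 genes tested 6360 were above 0 and 5930 below. The anoxic arrays lay clear above the aerobic ones for 9 of 13, 6 of 10 and 1 of 5 genes and clear below for 0, 0 and 3, while over all genes tested 40.8% were clear above and 37.2% clear below. Without RPL27 and RPL18 the large class had a median of 0.42 over 11 genes. These are descriptions of the genes at hand, and the difference between the classes was not tested.

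The classes also differed between replicate arrays, and this sets how the medians can be read. Anoxic replicate 2 read above anoxic replicate 1 for 25 of 28 members, with a median gap of 0.24 log2 units, where over all genes tested it did so for 5548 of 12290 with a median gap of -0.039. In the small subunit this gap was 0.43 with 10 of 10 genes, larger than the class median of 0.19 between groups. In the large subunit it was 0.22 with 11 of 13 genes, smaller than the 0.50 between groups. The small-subunit median was 0.071 without anoxic replicate 2 and 0.46 without anoxic replicate 1.

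**Figure D3:**
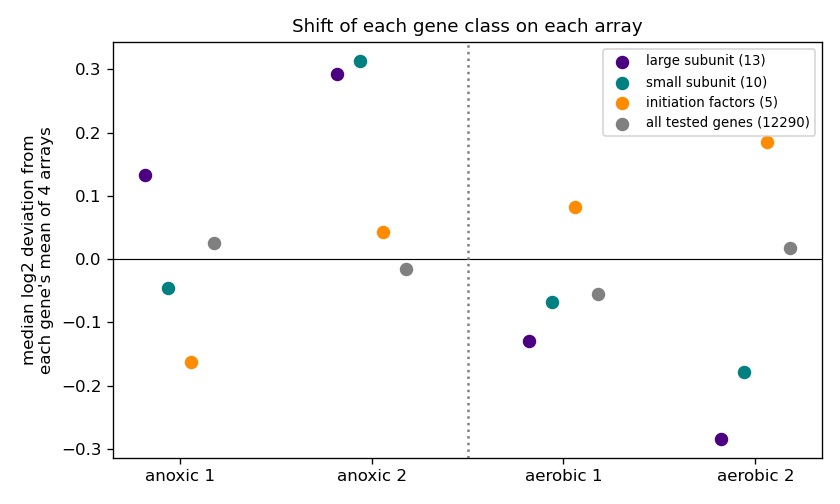
Median deviation of each class on each array, where each gene's log2 value is taken relative to its own mean over the 4 arrays; the number of genes is in the legend. The large-subunit median lies at 0.13 and 0.29 on the anoxic arrays and at -0.13 and -0.28 on the aerobic ones, while the small-subunit median lies at -0.045 and 0.31 on the anoxic and at -0.068 and -0.18 on the aerobic arrays.

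Genes for the assembly of ribosomes had larger estimates than most genes for the ribosome's own proteins, a difference that was not tested. Of the 5 tested genes of the assembly list 3 rose, PES, NUG2 and WDR12, and 0 fell, against 16% higher and 18% lower over all genes, and the median log2 change was 1.56. PES, WDR12 and BOP1 form the PeBoW complex, known from mammals and plants, which matures the RNA of the large subunit in the nucleolus, and NUG2 is a GTPase that acts on large-subunit precursors in the nucleus. The anoxic arrays lay above the aerobic ones for all 5 genes of the list, as they did for 40.8% of all genes.

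PES (LOC4333814) read 657 and 901 in anoxic against 193 and 195 in aerobic coleoptiles, a rise of 1.98 ± 0.22 log2 units or 3.95-fold (limma, adjusted p = 0.00557). NUG2 (LOC4332852) read 3471 and 3683 in anoxic against 1090 and 1233 in aerobic coleoptiles, a rise of 1.62 ± 0.17 (adjusted p = 0.00511). WDR12 (LOC4343819) read 231 and 294 in anoxic against 94.2 and 81.6 in aerobic coleoptiles, a rise of 1.56 ± 0.21 (adjusted p = 0.00837). In all 3 the groups were further apart than the replicates.

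BOP1 (LOC4343071) read 127 and 179 in anoxic against 90.5 and 81.3 in aerobic coleoptiles, and its change of 0.81 ± 0.24 did not pass (adjusted p = 0.0565). RRP46, a subunit of the exosome that trims RNA, read 21.5 and 34.6 in anoxic against 13.9 and 18.1 in aerobic coleoptiles (0.75, adjusted p = 0.119). All 3 calls were lost without aerobic replicate 1 (adjusted p from 0.0538 to 0.0674), and those of PES and WDR12 without aerobic replicate 2 (0.0649 and 0.0755). The log2 changes of PES, NUG2 and WDR12 stayed between 1.39 and 2.21 whichever array was left out.

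**Figure D4:**
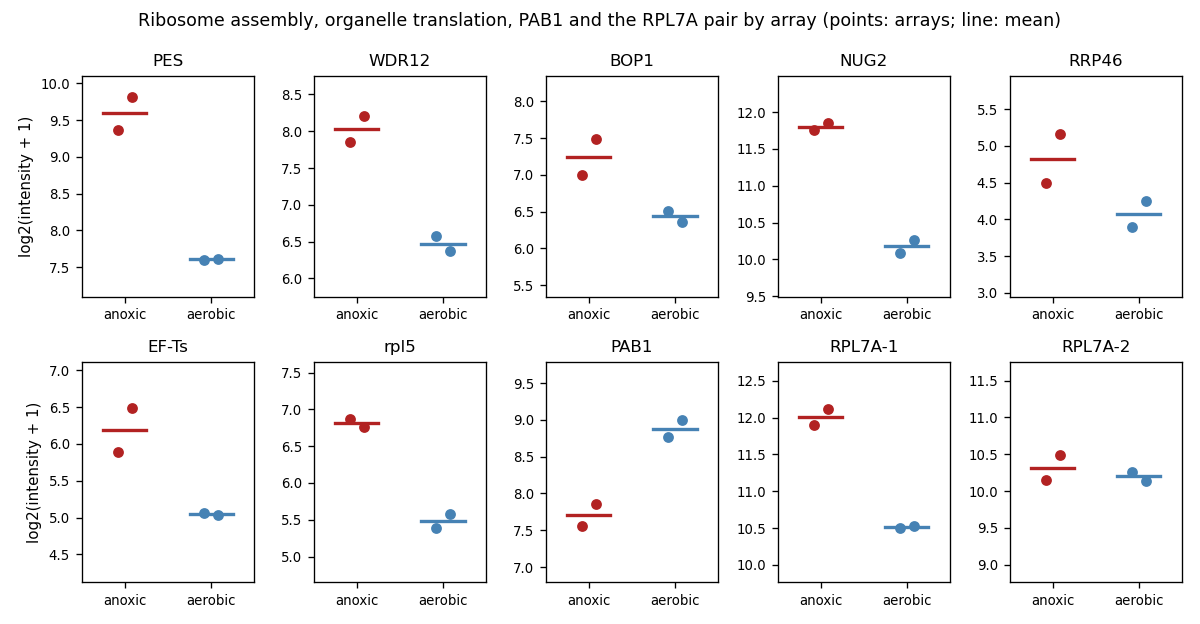
Log2(intensity + 1) of 10 genes on each array, anoxic on the left and aerobic on the right; points are arrays, lines are means, and every panel spans 3 log2 units. PES, WDR12 and NUG2 stand apart between groups, BOP1 and RRP46 less so, PAB1 runs the other way, and RPL7A-1 differs where RPL7A-2 does not.

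Of 3 tested elongation factor genes 1 rose and 0 fell, a share near the 34% called over all genes. EF-1-alpha, which delivers loaded tRNAs, read 6869 and 6191 in anoxic and 6556 and 6630 in aerobic coleoptiles, with a change of -0.016 and a 95% interval from -0.47 to 0.44. EF-1-beta, its exchange factor, changed by 0.55 ± 0.17 (adjusted p = 0.0698). EF-Ts (LOC4345504), an exchange factor of bacterial type also listed as mitochondrial, read 58.2 and 88.5 in anoxic against 32.6 and 31.9 in aerobic coleoptiles, a rise of 1.13 ± 0.26 (adjusted p = 0.0304). Its change was 0.83 and not called without anoxic replicate 2, and the call was lost without either aerobic array (adjusted p = 0.155 and 0.161).

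None of the 3 tested genes for aminoacyl-tRNA synthetases, which load tRNAs, was called by limma, against 34% of all genes. MetRS, LysRS and HisRS changed by 0.64, 0.35 and 0.0097 (adjusted p = 0.100, 0.266 and 0.969). At an unadjusted p under 0.05 the number was also 0, against 26.7% higher and 26.7% lower over all genes. These counts over 3 genes were not tested against those shares. PAB1 (LOC4333000), a poly(A)-binding protein that joins the tail of an mRNA to eIF4G, read 187 and 230 in anoxic against 433 and 509 in aerobic coleoptiles, and fell by 1.17 on the log2 scale (SE 0.21, adjusted p = 0.0157). Another PAB1 probe set changed by -0.47 (adjusted p = 0.171), and the call was kept without anoxic replicate 2 (adjusted p = 0.0491) but lost without any other array (0.0658 to 0.101). LST8, a partner of the growth kinase TOR, changed by 0.093 with a 95% interval from -0.40 to 0.59. TOR itself had no probe set paired with it.

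Of 3 tested genes with the lower-case symbols used for organelle ribosomal proteins, rpl5 rose and none fell, a share near the 34% called over all genes. The gene rpl5 (LOC4331459) read 116 and 107 in anoxic against 41.1 and 46.8 in aerobic coleoptiles, a rise of 1.33 ± 0.18 (adjusted p = 0.00816), lost without aerobic replicate 1 (0.0672) or aerobic replicate 2 (0.0582). The gene rps20 changed by -0.37 (adjusted p = 0.311). The gene rps14, which shares its locus with the succinate dehydrogenase subunit SDH2-1, changed by -0.57 on its brightest probe set (adjusted p = 0.0664). Its other tested probe sets changed by -0.92 (adjusted p = 0.0165), under 2-fold, and by 0.078 (adjusted p = 0.813), so they differ, and none need read the ribosomal part.

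**Figure D5:**
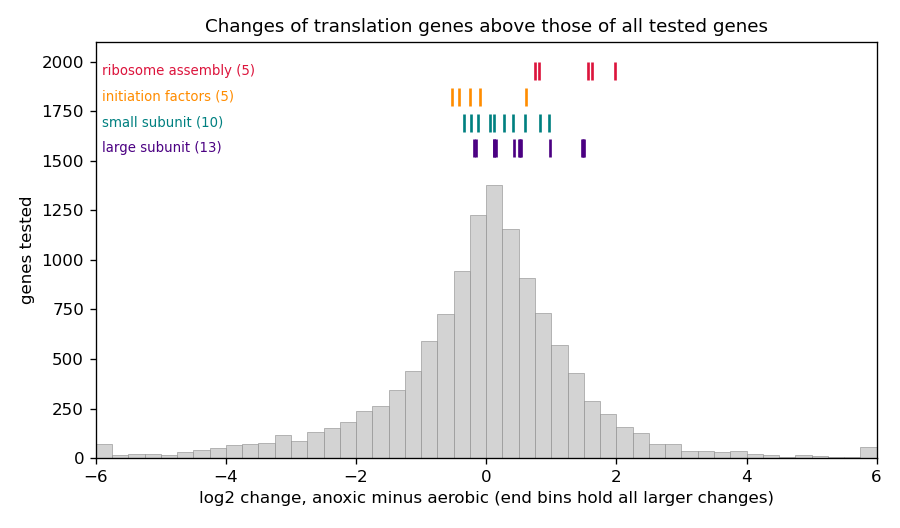
Number of genes by log2 change, anoxic minus aerobic, for all 12290 genes tested, with the changes of the classes drawn as ticks above (number of genes in brackets). The ribosomal protein and initiation factor genes lie between -0.53 and 1.51, inside the broad spread of all genes, and the 5 assembly genes between 0.75 and 1.98.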

How the data were processed

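The authors deposited linear, normalized intensities (2.25 to 18694), made with GCRMA per the submitters' processing notes; its version and options are not given here. GCRMA models background and equalizes arrays, so a shift of all transcripts would not be seen. Log2(intensity + 1) was taken, which understates changes of dim probe sets. Of 57381 probe sets 187 controls were left out, and 18826 with a mean log2 level of at least 4 entered a limma fit (version 3.58.1, R 4.3.3) with Benjamini-Hochberg adjustment over all of them (called at adjusted p under 0.05 and at least 2-fold). Genes were named through the platform annotation and RefSeq assembly ASM3414082v1 and read by their brightest probe set over the 4 arrays. For 7 of 28 members its suffix (_s_at, _x_at or _a_at) marks probes that may match several transcripts. The number of arrays limits the precision: the fit had 2 residual degrees of freedom, and eBayes added 2.34. The steps were tested on simulated data. Alternatives changed the pseudocount, filter, normalization, floor, variance model, fold rule, probe sets, block and arrays used.

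Members and lists were chosen with earlier results of these data known. Named genes were the markers RPL27, RPL7A-1, RPL18 and 60SP0, called members, the 3 brightest and 3 most changed per class, and members whose probe sets differ in sign; the other members were named after their values were seen. Of the other lists, called genes were named by rule and the rest after their values were seen. From the lists, FIB (the aminotransferase TAR2) and symbols such as ERS1, which name no tRNA synthetase, were removed by identity; a list of release factors matched no gene. Promoter motifs and sequences were not analysed here.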

Additional observations from a re-analysis of the deposited data

How the results depend on the processing

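No call of an initiation factor or a small-subunit gene, and no lower call of any member, appeared under any alternative except as given here. The 2 higher calls in the large subunit were 1 with a pseudocount of 16, with no filter, with a mean of at least 6, with values under 5 set to 5 and with _at probe sets only (an alternative added after seeing the data), and 4 under quantile normalization, which also called 1 small-subunit gene. With no minimum fold, 2 small-subunit genes and 1 initiation factor were called higher. Leaving out 1 array gave 0 to 3 large-subunit calls (0 without aerobic replicate 1, 1 without aerobic replicate 2); class medians then ran from 0.34 to 0.55 (large), 0.071 to 0.46 (small) and -0.31 to -0.17 (initiation factors). RPL27 changed by 0.83 with a pseudocount of 16 and by 0.15 with the floor, a setting that lifts its aerobic values. Single-gene changes that turned sign did so only with 1 array left out, all in genes not called: eIF3k (-0.22 to 0.017), RPL39B (-0.42 to 0.058), RPL39C (-0.45 to 0.15), RPL7A-2 (-0.053 to 0.29), RPS10-1 (-0.35 to 0.47), RPS10-2 (-0.46 to 0.0077) and RPS3A (-0.32 to 0.059). Over the whole array 6036 probe sets were called, 1709 with no filter, 3829 with a mean of at least 6 (fewer were tested), 3348 with the floor, and 2083 to 4253 with 1 array left out (2090 without aerobic replicate 1 and 2083 without aerobic replicate 2). Of the other lists, the elongation factor call (EF-Ts) was 0 with a pseudocount of 16, no filter, a mean of at least 6, the floor or the replicate block; the assembly calls were 1 with no filter; and the PAB1 call was 0 with no filter and with the mean over probe sets. With 1 array left out, assembly calls ran from 0 to 3 and those of elongation factors, PAB1 and rpl5 from 0 to 1. Except where a clause gives a reason, the cause was not tested. Titles number replicates 1 and 2 in both groups, but nothing says that the numbers pair samples, and deviations of same-numbered arrays had r = -0.14. It is therefore given only here: the replicate block gave 5556 called probe sets and 2 large-subunit calls; the crossed block, added after seeing the data, gave 6467 and 3.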

Other observations

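Several of the called translation genes carry organelle-type names, a grouping made after their values were seen and therefore given without a test. Of 6 tested genes with such a name (RPL27, RPL18, EF-Ts, rpl5, rps20 and rps14) 3 were called higher and 0 lower, where 16% of all genes tested were called higher and 18% lower. The 3 are rpl5, RPL27, whose aerobic mean was below background, and EF-Ts, whose call was lost under the 5 settings given above and without each of 3 arrays. Of the 38 other tested translation genes, members and listed genes together, 4 were called higher (RPL7A-1, PES, NUG2 and WDR12) and 1 lower (PAB1).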
